A study of Mus musculus with 79 samples.

Results

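Matricellular glycoproteins are secreted into the extracellular matrix, where they act mainly as signals between cells and the matrix and less as load-bearing fibres. In adult tissue most are made at low levels at rest and in larger amounts during injury, repair and fibrosis. They bind integrins and other cell surface receptors, growth factors and proteases, and in the lung they are made by fibroblasts, smooth muscle, endothelium, epithelium and macrophages. Here 10 genes of this class were described by name: Fn1 (fibronectin), Tnc (tenascin C), Spp1 (osteopontin), Thbs1 and Thbs2 (thrombospondins), Postn (periostin), Sparc, and the CCN family members Ctgf (Ccn2), Cyr61 (Ccn1) and Nov (Ccn3). Each gene was measured by exactly 1 row of an expression table of 31350 rows, found through the transcript accession that named the row.

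The lungs came from 79 mice on the C57BL/6J background, aged 5-7 weeks, with 1 array per mouse. Mice were WT or βENaC littermates. βENaC mice carry a transgene that overexpresses Scnn1b, a subunit of the epithelial sodium channel, in airway epithelium, which dries the airway surface and leads to mucus plugging. Mice breathed smoke from 6 reference cigarettes with the filters removed each day, or room air in the same chamber (sham), for 1 or 5 days, and the right lung was taken 4 hours after the last exposure. The 16 groups of genotype, exposure, sex and duration held 4 to 6 mice each, 40 mice at 1 day and 39 at 5 days, and each duration had its own sham mice. All values are log2 intensities as normalized by the authors, so a difference of 1 is a doubling of signal. The tissue was whole lung, and fewer cells of a type and less RNA per cell cannot be told apart.

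All arrays were run on 1 plate, and array medians lay between 4.44 and 4.55. The lowest correlation between any pair of arrays was 0.97. Scnn1b lay between 8.42 and 9.48 in WT mice and between 11.52 and 11.88 in βENaC mice. That check is not independent for every mouse, because the authors reassigned 1 mouse to WT on its Scnn1b level and removed 1 mouse as mislabelled for smoke. The mean level of alveolar type 2 cell markers was between 11.64 and 11.97 in all mice. The source names of 13 WT mice called them βENaC against their titles and genotype entries, and the titles were followed. In 2 mice, WT smoke female replicate 4 at 5 days and WT sham male replicate 4 at 1 day, the mean level of skeletal muscle markers was 9.37 and 9.35, against a median of 3.51 over all mice.

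In 4 mice several of the matricellular genes were among the most extreme values of all 79 mice, and these are called the 4 mice that stood apart. They were chosen after their values were seen. In βENaC sham male replicate 1 at 1 day, Fn1 at 11.82, Tnc at 9.53 and Thbs1 at 10.91 were each the highest of 79 mice. In βENaC smoke female replicate 3 at 5 days Spp1 was the highest of 79 mice at 11.82 and Tnc the second highest at 7.89. βENaC sham male replicate 3 at 5 days had Spp1 at 11.51, Tnc at 7.76 and Fn1 at 11.64, each the third highest of 79 mice, but the other 4 mice of its group reached 11.69 for Fn1 and 7.64 for Tnc. These 3 mice also had macrophage marker levels of 10.64, 10.92 and 10.61, against a median of 8.45 over all mice. The fourth mouse, WT smoke female replicate 2 at 5 days, had the lowest Fn1 (10.30), Postn (10.35) and Cyr61 (8.90) and the highest Nov (6.97) of all mice, together with the lowest fibroblast marker level (8.05, median 8.94). Other marker lists were extreme in these mice too. The fourth mouse had the lowest adipocyte marker level (5.43, median 6.3), and βENaC sham male replicate 1 at 1 day the second highest neutrophil marker level (9.08, median 7.32). βENaC smoke female replicate 3 at 5 days had the lowest endothelial (9.82, median 10.2) and mesothelial (7.63, median 7.95) marker levels. The part of any cell type in the extreme values was not tested. Results that rest on the 4 mice are given below with and without them.

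**Figure D1:**
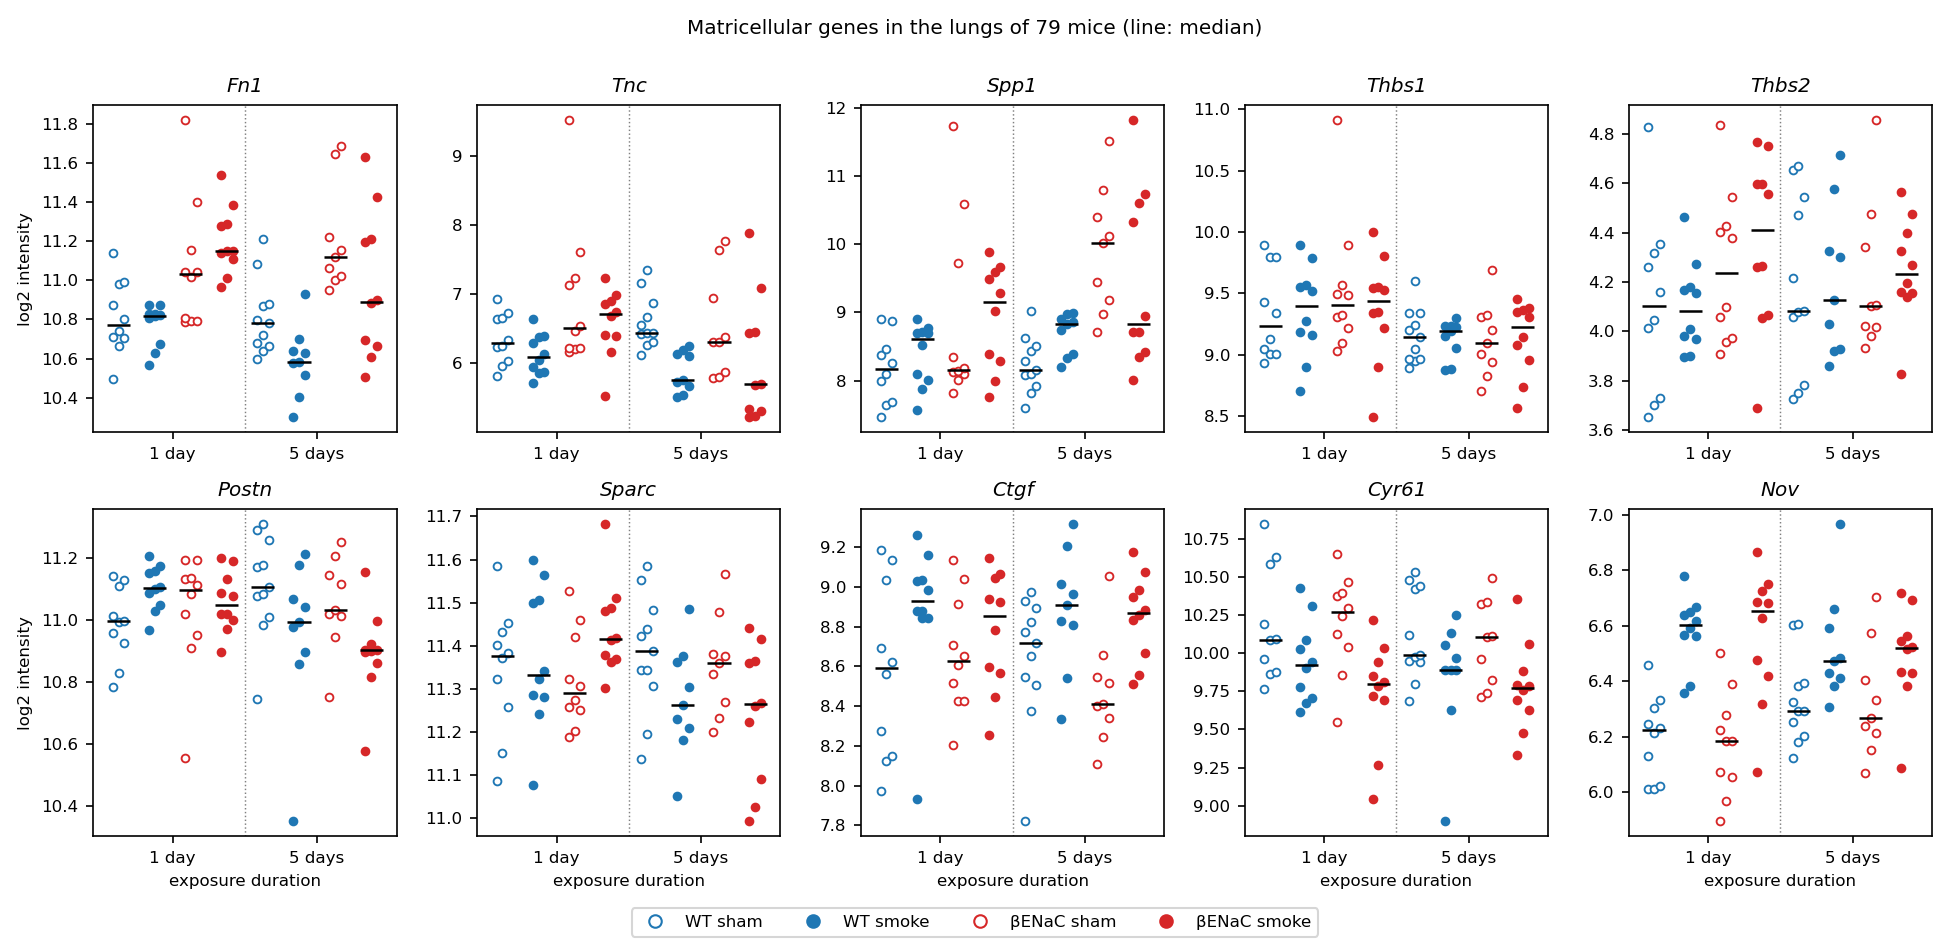
Log2 intensity of each gene in every mouse (1 point per mouse), by exposure duration, genotype and exposure, with each panel on its own vertical scale and a line at the median of each set of 9 to 11 mice. Nov was higher in smoke than in sham mice at 1 day, Spp1 was spread over a wide range in βENaC mice, and single βENaC mice reached 9.53 for Tnc and 11.82 for Spp1.

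Over the 8 sets of genotype, exposure and duration, the medians of each gene fell in an order in which all 7 pairs of neighbouring sets overlapped in range. Fn1 had its lowest median in WT smoke mice at 5 days (10.58) and its highest in βENaC smoke mice at 1 day (11.15). The ranges of these sets did not overlap (10.30 to 10.93 against 10.97 to 11.54), while the lowest and highest sets of each other gene did. Such sets were picked by their medians, and the share of all rows that separate this way was not counted. Tnc ran from 5.70 in βENaC smoke mice at 5 days to 6.71 in βENaC smoke mice at 1 day, and Spp1 from 8.15 in WT sham mice at 5 days to 10.01 in βENaC sham mice at 5 days. The medians of Nov ran from 6.19 in βENaC sham mice to 6.65 in βENaC smoke mice, both at 1 day.

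Cyr61 was lowest in βENaC smoke mice at 5 days (9.77) and highest in βENaC sham mice at 1 day (10.27), and Ctgf was lowest in βENaC sham mice at 5 days (8.41) and highest in WT smoke mice at 1 day (8.93). The other genes varied less. The medians ran from 10.90 to 11.10 for Postn, from 11.26 to 11.41 for Sparc, from 9.09 to 9.44 for Thbs1 and from 4.08 to 4.41 for Thbs2.

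The 250 bases before the transcription start of Cyr61 are shown because its level varied between mice together with those of immediate-early genes, as described further on, and those of Nr4a1, which followed Cyr61 most closely, are shown beside it. Both come from RefSeq on GRCm38.p6 and are written 5′ to 3′ on the strand of the gene. Capitals mark the CREB half-site TGACG and the TEAD site GGAATG on either strand, with no overlap between the matches. The window of Cyr61 is chr3:145649986-145650235 on the minus strand, and that of Nr4a1 is chr15:101266596-101266845 on the plus strand.
Cyr61: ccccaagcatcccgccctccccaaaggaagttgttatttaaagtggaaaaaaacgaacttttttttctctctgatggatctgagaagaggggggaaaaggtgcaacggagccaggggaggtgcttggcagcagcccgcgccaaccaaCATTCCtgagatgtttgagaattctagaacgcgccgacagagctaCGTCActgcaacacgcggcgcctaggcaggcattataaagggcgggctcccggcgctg
Nr4a1: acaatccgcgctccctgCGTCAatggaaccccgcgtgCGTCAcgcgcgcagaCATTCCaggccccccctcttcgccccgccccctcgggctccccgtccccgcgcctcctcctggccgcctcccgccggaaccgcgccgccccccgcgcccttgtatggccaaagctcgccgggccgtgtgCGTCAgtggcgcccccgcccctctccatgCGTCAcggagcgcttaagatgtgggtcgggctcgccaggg
Cyr61 held 1 match to TGACG, from 58 to 54 bases before the start, and Nr4a1 held 4, of which the nearest began 40 bases before the start. Each held 1 match to GGAATG, from 103 to 98 bases before the start in Cyr61 and from 198 to 193 in Nr4a1. Among 32851 windows of the same length, 17.8% held TGACG and 12.6% held GGAATG. These matches describe the letters of the windows and not binding. Of the 10 genes, 6 had a window in the table of promoters.

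One comparison asked how smoke changed each gene at a fixed genotype and sex. At an adjusted p below 0.05, Nov rose and Cyr61 fell after 1 day of smoke, and Ctgf rose and Tnc fell after 5 days. Tnc lay close to that threshold, and 0 of the 10 genes passed when smoke was compared between the durations. At 1 day 2 of the 10 genes passed an adjusted p of 0.05, where 9.45% of all rows passed. At 5 days 2 of 10 passed, against 6.53% of all rows. With a change of at least 1.3-fold also required, 1 of 10 passed at each duration, Nov at 1 day and Tnc at 5 days, against 1.07% and 1.15% of all rows. At an unadjusted p below 0.05 the counts were 4 of 10 at 1 day, against 21.5% of all rows, and 7 of 10 at 5 days, against 18.2%. The median coefficient of the 10 genes was 0.06 at 1 day and -0.05 at 5 days, beside 0.01 and -0.00 over all rows.

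The CCN family gave 3 of the 4 changes with smoke. CCN proteins share a modular build and bind integrins and heparan sulfate proteoglycans. Nov was first described as overexpressed in a viral kidney tumour and often acts against the fibrogenic members of its own family. At 1 day Nov in WT mice was 6.01, 6.22 and 6.46 (lowest, median and highest of 10) after sham and 6.36, 6.603 and 6.78 after smoke. In βENaC mice it was 5.90, 6.19 and 6.50 after sham and 6.07, 6.65 and 6.87 after smoke. The ranges overlapped, but 14 of the 20 smoke mice lay above every sham mouse and 19 of 20 lay above the sham mean of their own genotype and sex. The coefficient for smoke was 0.39 (SE 0.05), or 1.31-fold, with an adjusted p of 3.99e-06. The difference between smoke and sham means was positive in each of the 4 combinations of genotype and sex, from 0.33 in βENaC females to 0.44 in βENaC males.

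At 5 days Nov was 6.07, 6.29 and 6.70 in 20 sham mice and 6.09, 6.49 and 6.97 in 19 smoke mice. The coefficient was 0.17 (SE 0.06) with an adjusted p of 0.054, and 14 of 19 smoke mice lay above their sham mean. It passed in 7 of 10 alternative fits, with adjusted p from 0.0199 to 0.0619. βENaC females differed by -0.03 and the other combinations by 0.14 to 0.32. The change with smoke at 5 days minus that at 1 day was -0.21 (SE 0.08), which had an unadjusted p of 0.0091 and did not pass with an adjusted p of 0.228.

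Cyr61 encodes an immediate-early gene product that promotes adhesion, migration and senescence of cells. It was lower after smoke in every combination of genotype and sex at both durations. At 1 day it was 9.55, 10.16 and 10.85 in 20 sham mice and 9.04, 9.83 and 10.43 in 20 smoke mice. No group stood clear of the other, yet 17 of 20 smoke mice lay below their sham mean. The coefficient was -0.35 (SE 0.10), which passed with an adjusted p of 0.0142. At 5 days it was 9.69, 10.05 and 10.53 in sham mice and 8.90, 9.88 and 10.35 in smoke mice, with a coefficient of -0.28 (SE 0.10) and an adjusted p of 0.0759. Of 19 smoke mice 16 lay below their sham mean, and without the 4 mice that stood apart the coefficient was -0.20 (adjusted p = 0.191). The change with smoke at 5 days minus that at 1 day was 0.06 (SE 0.14, adjusted p = 0.931).

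By sex and genotype, the 1-day difference in Cyr61 was -0.81 in βENaC females, -0.36 in WT females and -0.12 in males of both genotypes. The coefficient for sex by exposure, male minus female, was 0.47 (SE 0.18) with an unadjusted p of 0.014 and an adjusted p of 0.71. At 5 days the differences were -0.27, -0.41, -0.31 and -0.11 in βENaC females, WT females, βENaC males and WT males.

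Ctgf, a profibrotic effector downstream of TGF-β and of YAP, was higher after smoke in all 4 combinations at both durations. At 1 day it was 7.97, 8.61 and 9.19 in sham mice and 7.93, 8.90 and 9.26 in smoke mice, with a coefficient of 0.21 (SE 0.10) and an adjusted p of 0.228. At 5 days it was 7.82, 8.55 and 9.05 in sham mice and 8.34, 8.88 and 9.32 in smoke mice. The ranges overlapped, and 17 of 19 smoke mice lay above their sham mean, compared with 15 of 20 at 1 day. The 5-day coefficient of 0.31 (SE 0.09) passed with an adjusted p of 0.02. In the fit over both durations, which left out genotype and sex, smoke at 5 days minus smoke at 1 day was 0.09 (adjusted p = 0.898). No difference between the durations was shown.

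**Figure D2:**
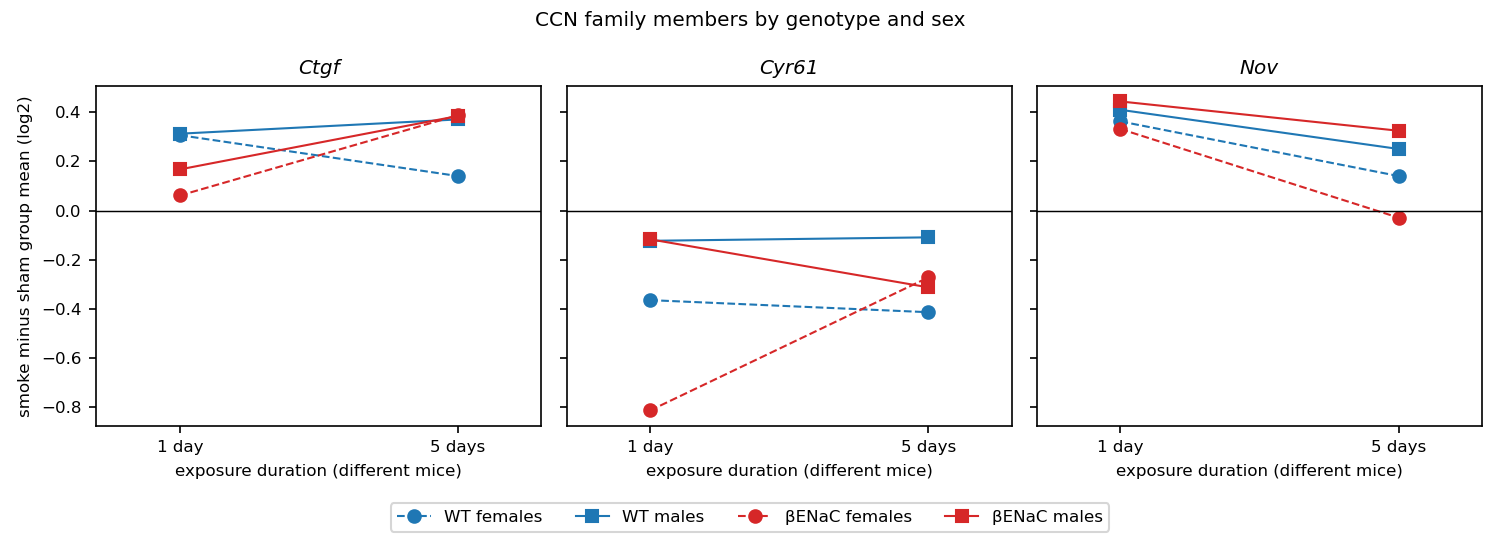
Mean log2 intensity of smoke mice minus that of sham mice for Ctgf, Cyr61 and Nov, in each combination of genotype and sex (4 to 6 mice per mean), with lines joining separate sets of mice at 1 and 5 days. Ctgf lay above 0 and Cyr61 below 0 in all combinations, and Nov was near 0 only in βENaC females at 5 days (-0.03).

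Tnc encodes a large hexameric protein that appears at sites of injury and branching and counters adhesion to fibronectin. At 1 day Tnc was 5.81, 6.399 and 9.53 in sham mice and 5.52, 6.39 and 7.24 in smoke mice, and the coefficient of -0.29 (SE 0.18) did not pass (adjusted p = 0.366). At 5 days it was 6.13, 6.44 and 7.35 in WT sham mice and 5.52, 5.76 and 6.26 in WT smoke mice. In βENaC mice it was 5.79, 6.31 and 7.76 after sham and 5.22, 5.70 and 7.89 after smoke. Of 19 smoke mice 11 lay below every sham mouse and 17 lay below their sham mean, while 1 smoke mouse lay above every sham mouse.

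The 5-day coefficient for Tnc was -0.60 (SE 0.19), a 1.52-fold decrease, with an adjusted p of 0.0463 that lay close to the threshold. The call held in 8 of 10 alternative fits but not under an ordinary linear model (adjusted p = 0.0617). It was lost in 27 of the 39 fits that left out 1 mouse, where the adjusted p reached 0.0783. Over all 39 fits the coefficient stayed between -0.71 and -0.54. It was -0.63 (adjusted p = 0.00579) without the 4 mice that stood apart. Those mice were chosen for extreme values of these genes, Tnc among them, so the smaller adjusted p is no independent support. The differences between smoke and sham means were -0.69 in βENaC females, -0.29 in βENaC males and -0.71 and -0.73 in the females and males of WT. For Tnc the change with smoke at 5 days minus that at 1 day was -0.32 (SE 0.28, adjusted p = 0.758).

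Fn1, Postn and Sparc had negative coefficients after 5 days of smoke that lay just short of the threshold. Fibronectin links integrins to collagen and other matrix proteins and is both a plasma and a tissue protein. Fn1 was 10.60, 10.98 and 11.69 in sham mice and 10.30, 10.66 and 11.63 in smoke mice, with a coefficient of -0.22 (SE 0.08) and an adjusted p of 0.0713. Postn, a collagen-binding protein made by fibroblasts and by epithelium exposed to interleukin-13, was 10.75, 11.09 and 11.31 in sham mice and 10.35, 10.90 and 11.21 in smoke mice, with a coefficient of -0.15 (SE 0.05) and an adjusted p of 0.0594. Sparc, a collagen-binding protein that takes part in fibril assembly, had a coefficient of -0.10 (SE 0.03) and an adjusted p of 0.0531. The ranges overlapped for all of them, and 16, 18 and 15 of 19 smoke mice lay below their sham means for Fn1, Postn and Sparc. Over 10 alternative fits Sparc passed in 7 (adjusted p from 0.011 to 0.102), Postn in 7 (0.0237 to 0.0824) and Fn1 in 3 (0.0204 to 0.1).

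How many genes passed at 5 days depended on the processing and on single mice. The 2 genes became 4 with a replicate block, 5 with cyclic loess normalization or without the lowest 30% of rows, and 6 with array weights or 1 fit over all mice. Leaving out 1 mouse at a time gave 1 to 5 genes, 1 gene for 14 mice and 4 or 5 genes for 5 mice (βENaC smoke female replicate 3, WT sham female replicate 3, βENaC sham male replicates 4 and 5 and βENaC smoke male replicate 5). Without the 4 mice that stood apart 5 genes passed, among them Fn1 at -0.23 (adjusted p = 0.0204), Postn at -0.13 (adjusted p = 0.0237) and Nov at 0.16 (adjusted p = 0.0326). As those mice were chosen for extreme values of these genes, this count is no independent support.

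At 1 day these genes had coefficients of the other sign or near 0. Postn was 0.07 (SE 0.04, adjusted p = 0.316), with 14 of 20 smoke mice above their sham mean. Sparc was 0.07 (SE 0.03, adjusted p = 0.18), with 17 of 20 above, and Fn1 was 0.05 (SE 0.07, adjusted p = 0.741). The test of smoke at 5 days minus smoke at 1 day gave -0.24 (SE 0.07) for Postn and -0.19 (SE 0.06) for Sparc. Neither passed, with an adjusted p of 0.0885 for Postn (unadjusted p of 0.00105) and 0.14 for Sparc (unadjusted p of 0.00307). In that comparison limma called 0 of the 10 genes, where 0.612% of all rows passed. At an unadjusted p below 0.05 there were 3 of 10 against 11.1% of all rows, and an ordinary linear model called 0 of 10. Without WT sham female replicate 3 at 5 days Postn passed, at -0.25. Sparc passed with genotype and sex added to the fit, at -0.18 (adjusted p = 0.0273).

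The thrombospondins and Spp1 did not pass for smoke at either duration. Thbs1, which activates latent TGF-β and is stored in platelets, had coefficients of -0.07 (adjusted p = 0.779) and -0.00 (adjusted p = 0.992) at 1 and 5 days. Thbs2, an antiangiogenic relative that does not activate TGF-β, had 0.05 (adjusted p = 0.828) and 0.04 (adjusted p = 0.892). All Thbs2 values lay between 3.65 and 4.86, around the median of all rows on an array, and no detection call was used. Spp1 had 0.14 (SE 0.25, adjusted p = 0.822) and 0.02 (SE 0.26, adjusted p = 0.983), and its standard error was the largest of the 10 genes in both fits.

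**Figure D3:**
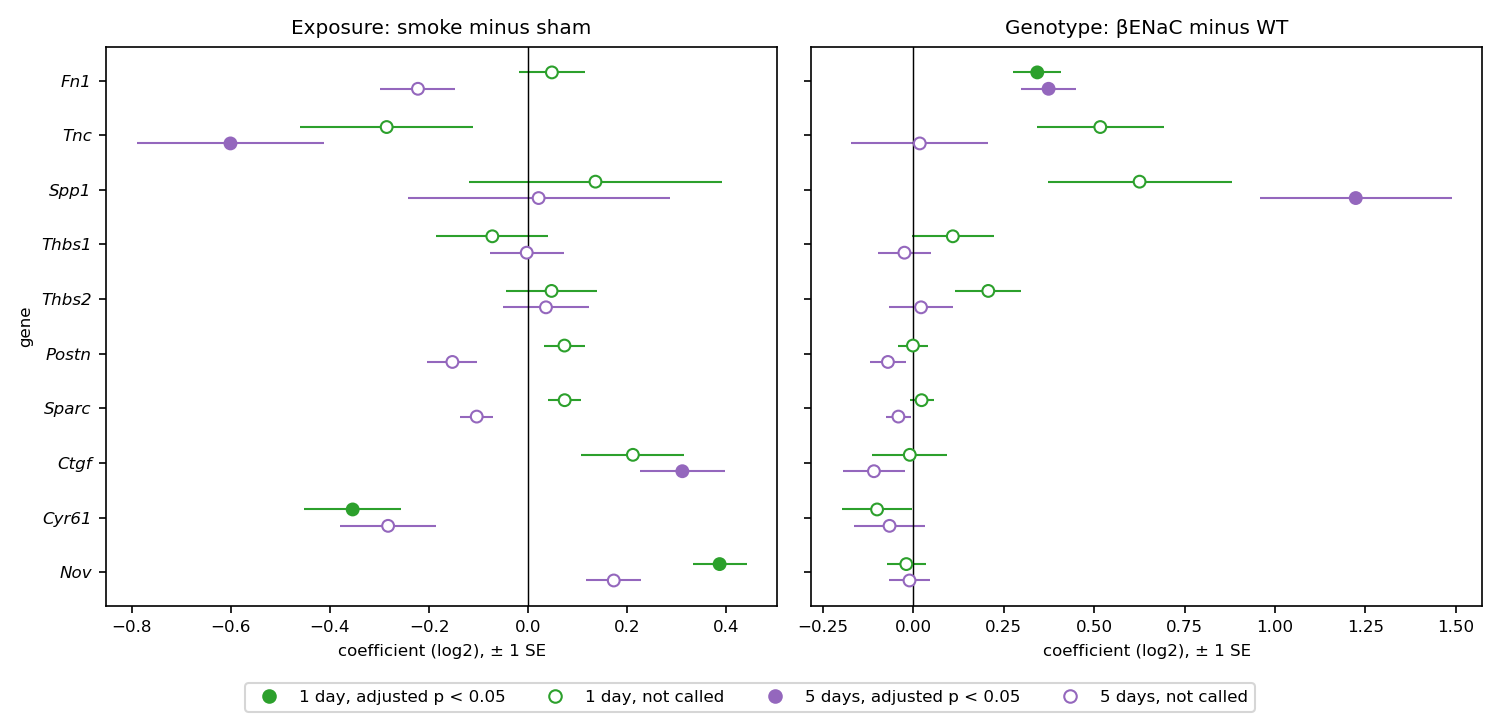
Coefficients for smoke minus sham (left) and βENaC minus WT (right) with bars of 1 SE, from the fits at 1 day (40 mice) and 5 days (39 mice), with filled points for an adjusted p below 0.05. Nov and Cyr61 at 1 day and Ctgf and Tnc at 5 days were filled for smoke, and Fn1 at both durations and Spp1 at 5 days for genotype.

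A further comparison asked how the genes differed between βENaC and WT lungs. Fn1 was higher in βENaC mice at both durations and Spp1 at 5 days, and 0 genes were lower. At 1 day 1 of 10 genes passed, where 5.87% of all rows passed, and at 5 days 2 of 10, where 10.2% passed. With 1.3-fold also required the counts were 0 of 10, against 1.54% of all rows, and 1 of 10, against 2.52%. At an unadjusted p below 0.05 there were 4 of 10 at 1 day, against 17.4% of all rows, and 2 of 10 at 5 days, against 22.5%. The ordinary linear model also called 1 gene at 1 day and 2 at 5 days.

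At 1 day Fn1 was 10.50, 10.81 and 11.14 in 20 WT mice and 10.79, 11.12 and 11.82 in 20 βENaC mice. The ranges overlapped, and 19 of 20 βENaC mice lay above the WT mean of their own exposure and sex. The coefficient was 0.34 (SE 0.07), or 1.27-fold, with an adjusted p of 0.00057. At 5 days Fn1 was 10.30, 10.67 and 11.21 in WT mice and 10.51, 11.06 and 11.69 in βENaC mice, and 19 of 19 βENaC mice lay above their WT mean. The 5-day coefficient was 0.37 (SE 0.08, adjusted p = 0.000694). Without the 4 mice that stood apart it was 0.31 (adjusted p = 0.000425) at 1 day and 0.30 (adjusted p = 0.00172) at 5 days.

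Spp1 encodes osteopontin, an acidic integrin and CD44 ligand that recruits leukocytes. At 5 days Spp1 was 7.60, 8.42 and 9.02 in 20 WT mice and 8.01, 9.45 and 11.82 in 19 βENaC mice. Of the βENaC mice 11 lay above every WT mouse, while the rest lay within the WT range. The coefficient was 1.22 (SE 0.26), or 2.33-fold, with an adjusted p of 0.00144, and it was 1.02 (adjusted p = 0.00292) without the 4 mice that stood apart. At 1 day the values were 7.46, 8.32 and 8.91 in WT mice and 7.77, 8.37 and 11.73 in βENaC mice, so that the medians lay close together and 9 of 20 βENaC mice lay above every WT mouse. The 1-day coefficient of 0.63 (SE 0.25) did not pass (adjusted p = 0.163), and the difference between the durations was 0.60 (SE 0.38, adjusted p = 0.856).

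Within the 5-day mice, Spp1 was 8.72, 10.01 and 11.51 in βENaC sham mice and 8.01, 8.83 and 11.82 in βENaC smoke mice. In WT mice it was 7.60, 8.15 and 9.02 after sham and 8.20, 8.83 and 8.99 after smoke. The smoke medians of both genotypes were 8.83, and the sham medians were far apart. The coefficient for genotype by exposure was -0.94 (SE 0.52) with an unadjusted p of 0.0774 and an adjusted p of 1, so this pattern did not pass its test. Of the 10 genes limma called 0 for genotype by exposure at 1 day or 5 days, where 0.00638% and 0% of all rows passed. At an unadjusted p below 0.05 there were also 0 of 10, against 6.98% and 3.82% of all rows, and the ordinary linear model called 0 at both durations.

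Tnc was 5.72, 6.25 and 6.93 in WT mice and 5.52, 6.62 and 9.53 in βENaC mice at 1 day, with a coefficient of 0.52 (SE 0.18) that did not pass (adjusted p = 0.0747). It was 0.38 (adjusted p = 0.062) without the 4 mice that stood apart, and it passed when βENaC smoke female replicate 1 or βENaC sham male replicate 4 or 5 was left out, at 0.57 each time. At 5 days the coefficient was 0.02 (SE 0.19, adjusted p = 0.976), and the difference between the durations was -0.50 (adjusted p = 0.819). In the comparison of genotype between durations limma called 0 of 10 genes and 0% of all rows, with 0 of 10 and 6.07% at an unadjusted p below 0.05, and the ordinary linear model called 0.

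Thbs2 was 0.21 higher in βENaC mice at 1 day (SE 0.09, adjusted p = 0.214) and 0.02 at 5 days (adjusted p = 0.931). Thbs1, Postn, Sparc, Ctgf, Cyr61 and Nov had genotype coefficients between -0.11 and 0.11 at both durations, and their adjusted p lay between 0.452 and 0.992. No member of the CCN family passed for genotype at either duration.

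Macrophage markers moved with genotype. All 8 macrophage markers measured were higher in βENaC mice at 1 and 5 days, with median coefficients of 0.86 and 1.10. Mmp12, the macrophage elastase, rose by 2.56 and 3.22, and Ctsk, Gpnmb and Itgax rose by 1.95 and 1.97, 1.69 and 1.87, and 0.85 and 1.21. Their mean level was 7.69, 7.87 and 8.60 in WT mice and 7.91, 9.06 and 10.64 in βENaC mice at 1 day, and 7.84, 8.08 and 8.98 against 8.19, 9.61 and 10.92 at 5 days. For smoke, fitted over both genotypes, 0 of the 8 passed at either duration. At 5 days their mean level was 7.84, 7.94 and 8.11 in WT sham mice and 8.15, 8.45 and 8.98 in WT smoke mice. In βENaC mice it went the other way in the median, with 9.03, 9.95 and 10.61 after sham and 8.19, 9.28 and 10.92 after smoke. For genotype by exposure at 5 days 0% of all rows passed, these markers among them. The part of these cells in the genotype differences of Fn1 and Spp1 was not tested.

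Both sexes were in every set of genotype, exposure and duration, and the fits gave a coefficient for sex. Sparc was higher in males at both durations and Thbs1 at 1 day. At 1 day 2 of 10 genes passed, where 9.89% of all rows passed, and at 5 days 1 of 10, where 0.616% passed. With 1.3-fold also required the counts were 1 of 10, against 0.836%, and 0 of 10, against 0.198%. At an unadjusted p below 0.05 there were 3 of 10, against 22.2% of all rows, and 4 of 10, against 11.3%. The ordinary linear model also called 2 genes at 1 day and 1 at 5 days.

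Sparc was 11.08, 11.29 and 11.41 in 20 females and 11.25, 11.47 and 11.68 in 20 males at 1 day. It was 10.99, 11.23 and 11.42 in 20 females and 11.23, 11.38 and 11.59 in 19 males at 5 days. At both durations 18 males lay above the female mean of their own genotype and exposure, and 15 males at 1 day and 8 at 5 days lay above every female. The coefficient was 0.18 (SE 0.03) in both fits, with adjusted p of 0.000299 and 0.00277.

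Thbs1 at 1 day was 8.49, 9.20 and 9.57 in females and 9.003, 9.56 and 10.91 in males, and 10 of 20 males lay above every female. The coefficient was 0.45 (SE 0.11), or 1.36-fold, with an adjusted p of 0.007, and it was 0.38 (adjusted p = 0.00614) without the 4 mice that stood apart. At 5 days it was 0.15 (SE 0.07, adjusted p = 0.461). Platelet markers were higher in males at both durations. Of 7 platelet markers 6 were higher in males at 1 day, where 9.89% of all rows passed for sex, and 5 at 5 days, where 0.616% passed. Their mean level was 4.95, 5.46 and 6.06 in females and 5.54, 5.87 and 6.25 in males at 1 day. At 5 days it was 5.46, 5.61 and 5.91 in females and 5.57, 5.92 and 6.38 in males. The part of platelets in the difference of Thbs1 was not tested.

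Postn at 5 days was 10.35, 10.96 and 11.18 in females and 10.75, 11.12 and 11.31 in males. The coefficient of 0.17 (SE 0.05) did not pass (adjusted p = 0.122), and 16 of 19 males lay above their female mean. Fn1 at 5 days was 0.21 higher in males (SE 0.08, adjusted p = 0.22). One further gene passed when a single mouse was left out, Fn1 at 0.26 without βENaC smoke female replicate 3 and Postn at 0.19 without βENaC sham male replicate 3, and Postn passed at 0.14 (adjusted p = 0.0399) without the 4 mice that stood apart. For sex by exposure limma called 0 of 10 genes at both durations, where 0.00638% and 0% of all rows passed. At an unadjusted p below 0.05 there was 1 of 10 at each, Cyr61 at 1 day and Nov at 5 days with a coefficient of 0.24, against 6.33% and 3.46% of all rows, and the ordinary linear model called 0.

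The 10 genes did not vary as 1 set between the mice of a group. Deviations from the means of the 16 groups were correlated over 79 mice, with both values of a mouse read from the same array, and the correlations are given as a description. Of 45 pairs 5 had r above 0.5, 2 had r below -0.5 and 31 lay between -0.3 and 0.3, with a median of 0.05. Fn1, Tnc and Spp1 formed the closest set, with r of 0.81 (rho 0.68) for Fn1 and Tnc, 0.72 (rho 0.59) for Fn1 and Spp1, and 0.72 (rho 0.52) for Tnc and Spp1. Without the 4 mice that stood apart these were 0.71, 0.59 and 0.55. Tnc and Thbs1 had r of 0.64 (0.49 without the 4 mice) and Thbs1 and Cyr61 0.51 (0.62).

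Postn was negatively related to 2 of the others. It had r of -0.55 with Spp1 and -0.54 with Thbs1, or -0.38 and -0.33 without the 4 mice, and r of 0.45 with Sparc (0.41). The 3 CCN genes were only weakly related to each other, with r of 0.30 for Ctgf and Nov, 0.18 for Ctgf and Cyr61 and -0.07 for Cyr61 and Nov.

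**Figure D4:**
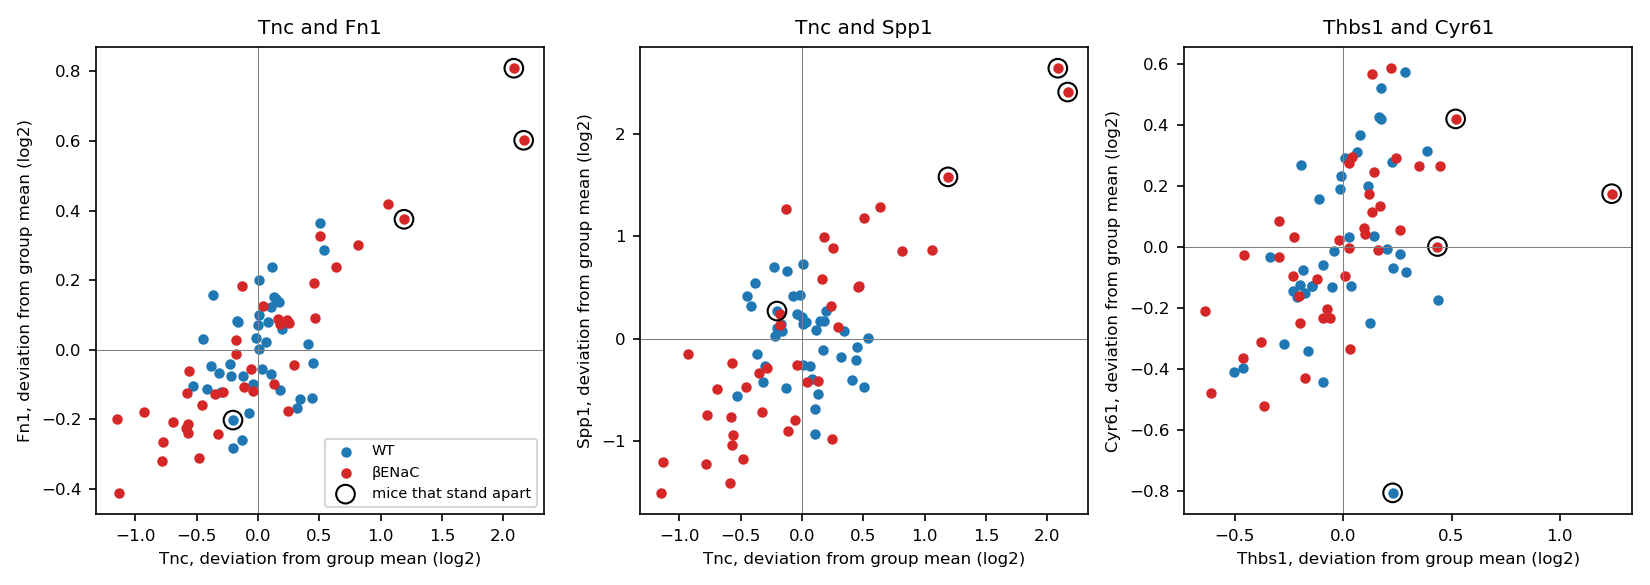
Deviation of each of 79 mice from the mean of its group (log2) for Tnc against Fn1, Tnc against Spp1 and Thbs1 against Cyr61, by genotype, with rings around the 4 mice that stood apart. The ringed βENaC mice lay at the upper right for Tnc with Fn1 and Spp1 (r of 0.81 and 0.72 over all mice, 0.71 and 0.55 without the ringed mice).

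The genes whose deviations followed each member most closely differed between members. Those of Spp1 were Mmp19 (r = 0.92), Tm4sf19 (0.90) and Cd63 (0.89), which stayed at 0.88, 0.84 and 0.83 without the 4 mice. Those of Fn1 were Timp1, Gatm and Rab3il1 (0.85 each, 0.75 to 0.76 without the 4 mice), and those of Tnc were Ccl2 (0.86), Mmp13 (0.86) and Timp1 (0.85). Timp1, a metalloprotease inhibitor on both lists, was higher in βENaC mice by 1.17 at 1 day (adjusted p = 0.00322) and 1.24 at 5 days (adjusted p = 0.00264), and did not pass for smoke. Tm4sf19 was higher in βENaC mice by 1.55 (adjusted p = 0.00557) and 2.10 (adjusted p = 0.000201).

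Sparc was followed by the matrix genes Mmp2 (0.69), Mfap4 (0.67) and Col1a2 (0.65), which kept 0.68 to 0.70 without the 4 mice. Mmp2, a gelatinase, and Mfap4, an elastic fibre protein, fell after 5 days of smoke by 0.37 (adjusted p = 0.0174) and 0.63 (adjusted p = 0.001). Those of Postn were Clstn2 (0.83), Itga2 (0.83) and Cpq (0.82), and those of Thbs2 were Aspn (0.58), Gm10808 (0.54) and Rrm2 (0.54). Those of Thbs1 were Chrna7, Anxa1 and Socs3 (0.70 each, 0.51 to 0.58 without the 4 mice).

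The CCN genes each had neighbours of their own. Cyr61 was followed by Nr4a1 (0.85) and Egr1 (0.83), transcription factor genes of the immediate-early response, and by Hspa1a (0.80), a heat shock protein gene, or 0.85, 0.81 and 0.79 without the 4 mice. Nr4a1 fell after smoke by 0.51 at 1 day (adjusted p = 0.0381) and by 0.70 at 5 days (adjusted p = 0.000666). Egr1 fell by 0.53 at 5 days (adjusted p = 0.0378) and did not pass at 1 day, at -0.33 (adjusted p = 0.126). Hspa1a passed at neither duration, at 0.69 (adjusted p = 0.208) at 1 day and -0.12 (adjusted p = 0.903) at 5 days. Ctgf was followed by Tsc22d3 (0.77), a glucocorticoid-induced gene, and by Cebpd (0.71), and neither passed for smoke. Tsc22d3 had smoke coefficients of 0.23 (adjusted p = 0.255) and 0.33 (adjusted p = 0.0766). Nov had the weakest neighbours among the CCN genes, Paf1 (0.60), Afdn (0.60) and Ptpn13 (0.59).

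Other genes of the class and related genes were read from further lists, whose counts stand against the shares of all rows that passed (9.45% and 6.53% for smoke at 1 and 5 days, 5.87% and 10.2% for genotype, 9.89% and 0.616% for sex). Of 18 other matricellular genes measured, 1 rose and 1 fell with smoke at 1 day, and 1 rose and 3 fell at 5 days. Wisp2, a CCN member that lacks the domain at the C terminus, fell by 0.46 at 1 day (adjusted p = 0.00302) and by 0.37 at 5 days (adjusted p = 0.002). Thbs3, a pentameric thrombospondin, fell by 0.43 at 5 days (adjusted p = 0.000544). In βENaC mice 1 was higher and 2 were lower at 1 day, and 1 was higher and 3 were lower at 5 days. Tnxb, the tenascin of loose connective tissue, had genotype coefficients of -0.50 (adjusted p = 0.000806) at 1 day and -0.57 (adjusted p = 4.24e-06) at 5 days. Vtn, the adhesive plasma protein vitronectin, had -0.50 (adjusted p = 5.55e-05) and -0.40 (adjusted p = 0.000709). In males 6 and 2 of the 18 were higher at 1 and 5 days.

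Of 15 receptors for matricellular proteins, 2 fell with smoke at 1 day, where 9.45% of all rows passed, and 6 at 5 days, where 6.53% passed, and 0 rose. Itga4, an integrin chain that binds fibronectin and osteopontin and is carried by leukocytes, fell by 0.44 (adjusted p = 1.34e-06) and 0.38 (adjusted p = 0.00219). For genotype 0 rose and 3 fell at 1 day, and 1 rose and 1 fell at 5 days. For sex 6 were higher and 1 was lower in males at 1 day, and 1 was higher at 5 days. The median coefficient of the receptors for smoke at 5 days was -0.08, beside -0.00 over all rows.

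Among 14 targets of serum response factor and YAP, the regulators for which Cyr61 and Ctgf are standard readouts, 1 rose with smoke at 1 day and 4 fell at 5 days. Fos fell by 0.47 at 5 days (adjusted p = 0.0151), beside Egr1 above. Atf3 was higher in βENaC mice at 5 days by 0.53 (adjusted p = 0.0443), and in all 1 rose and 1 fell with genotype at each duration. In males 5 were higher at 1 day and 0 at 5 days. Of 8 TGF-β ligands, receptors and regulators, 1 rose with smoke at 1 day and 2 fell at 5 days, 3 were higher in βENaC mice at each duration, and 3 and 0 were higher in males.

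Markers of the cells that make these proteins moved with some of the same factors. Of 8 fibroblast markers 1 rose with smoke at 1 day and 3 fell at 5 days, Col3a1 by 0.58 (adjusted p = 0.0122), Col1a1 by 0.39 (adjusted p = 0.0476) and Tcf21 by 0.38 (adjusted p = 1.84e-05). Their mean level at 5 days was 8.59, 9.0 and 9.34 in sham mice and 8.05, 8.89 and 9.10 in smoke mice. Endothelial markers gave 1 rise at 1 day and 3 falls at 5 days among 6, with mean levels of 10.08, 10.26 and 10.40 in sham and 9.82, 10.19 and 10.31 in smoke mice at 5 days. The part of these cells in the lower Tnc, Fn1, Postn and Sparc values after 5 days of smoke was not tested.

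For genotype, 3 fibroblast markers rose at 1 day and 2 fell at 5 days, 3 endothelial markers fell at each duration, and 1 and 3 of 6 smooth muscle markers fell, with coefficients of -0.44 (adjusted p = 0.000372) and -0.61 (adjusted p = 1.28e-07) for Cnn1. For smoke 0 smooth muscle markers passed. In males 4 fibroblast markers and 1 endothelial marker were higher at 1 day, 0 smooth muscle markers differed at either duration, and 0 of these 3 lists differed at 5 days.

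Of the remaining lists, 1 of 5 neutrophil markers fell with smoke at 1 day, Retnlg by 0.66 (adjusted p = 0.0237), and 0 passed for genotype. Platelet markers gave 1 rise with smoke at 5 days and 1 fall with genotype at 1 day, Ppbp at -0.51 (adjusted p = 0.0345). Mesothelial markers (5 measured) gave 2 rises and 1 fall with smoke at 1 day and 1 rise at 5 days, and 1 rise with genotype at 1 day. Adipocyte markers (6) gave 1 rise with smoke at 5 days and 1 fall with genotype at each duration, and heart muscle markers (5) 1 rise with smoke at 5 days. Cartilage markers (9 names, with Cnmd and Lect1 naming the same row) gave 1 rise and 1 fall with smoke at 1 day. They gave 1 fall with genotype at 5 days, and skeletal muscle markers (5) gave 0. Alveolar type 2 markers (5) gave 1 and 2 falls with smoke and 1 and 2 rises with genotype at 1 and 5 days.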

How the data were processed

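RNA from the right lungs of 79 mice was hybridised to Affymetrix moGene 2.1 arrays, 1 array per mouse. The authors made the deposited log2 values with RMA (background and probe sequence correction, then quantiles set equal across arrays and median polish) in Partek 6.6, checked quality in Expression Console 1.4, and merged probesets to genes. Setting quantiles equal makes all values relative to the other rows of an array. Probe brightness cannot be compared between genes, and no detection call was used. The genome build behind the table is not given in the sources used here. Columns were matched to samples by title. Of 31350 rows, 2537 were named from the study's tables (names only), 19300 from RefSeq accessions and 9513 had no symbol. Each of the 10 genes had 1 row, so averaging rows gives the same values.

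limma 3.58.1 (R 4.3.3) fitted genotype, exposure and sex on all rows, separately per duration, with the variables of the study's model. The study itself used the glm function in R, to which the ordinary linear model among the alternatives is closest. Differences between durations came from fits over both durations. The comparison of smoke between durations held exposure, duration and their interaction, the terms of the study's own test, without genotype and sex. The comparison of genotype between durations held genotype, exposure and sex, each by duration. Exposure by genotype or sex came from interaction terms added to the fit of each duration. P-values were adjusted by Benjamini-Hochberg over all rows. A call was an adjusted p below 0.05, and a second rule also required a coefficient over 0.379 (1.3-fold). All tests were two-sided. Mice were taken as separate animals, and their number limits the precision. The fits were tested on simulated data.

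The 10 genes, the 16 further lists and the tests were chosen with earlier results of these data known. Named genes were the members, the 3 genes closest to each in deviations from group means (Pearson r), and up to 4 list genes that passed both rules for exposure or genotype. One neighbouring gene is not reported here. Columns of the authors' own effect sizes and p-values were not used. Alternatives were an ordinary linear model, median centring, quantile and cyclic loess normalization, a filter on the lowest 30% of rows, array weights, a trend and robust prior, a replicate block, 1 fit over all mice, stricter fold rules and leaving out each mouse. Leaving out the 4 mice that stood apart was added after seeing the data.

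Replicate numbers in the titles were not used to pair the mice. Deviations of same-numbered mice had a median correlation of 0.01, against 0 for other numbers. The correlation was over 0.1 in 15.8% of same-numbered pairs and in 11.7% of other pairs. These values cannot settle whether some mice were paired.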

Additional observations from a re-analysis of the deposited data

Results flagged for a closer look

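In 14 of 160 sets of values (10 genes in 16 groups), or 8.8%, 1 mouse lay further from the rest of its group than a test for a single extreme value allows (Dixon's test). Chance gives about 1 in 20 for each set, but the sets share mice and arrays, and the share was not tested against it. The mice that stood apart, themselves chosen for extreme values, held 6 of these 14 values. In βENaC smoke female replicate 3 at 5 days they were Fn1 at 11.63 (others 10.51 to 10.69), Tnc at 7.89 (5.22 to 5.34), Postn at 10.58 (10.86 to 10.92) and Spp1 at 11.82 (8.01 to 8.95). βENaC sham male replicate 1 at 1 day had Postn at 10.56 (11.08 to 11.19), and WT smoke female replicate 2 at 5 days had Postn at 10.35 (10.86 to 10.99).

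The other 8 values were in 6 mice. βENaC sham female replicate 3 at 5 days had Tnc at 6.95 (others 6.31 to 6.38) and Thbs2 at 4.48 (3.98 to 4.02). WT smoke female replicate 5 at 1 day had Spp1 at 7.56 (8.52 to 8.91) and Ctgf at 7.93 (8.84 to 9.03). The remaining values were Fn1 at 10.63 (10.81 to 10.87) in WT smoke male replicate 4 at 1 day, Spp1 at 9.72 (8.01 to 8.18) in βENaC sham female replicate 2 at 1 day, Spp1 at 8.39 (8.90 to 8.99) in WT smoke male replicate 2 at 5 days, and Ctgf at 9.05 (8.34 to 8.55) in βENaC sham male replicate 5 at 5 days.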

How the results depend on the processing

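Of 120 coefficients tested for the 10 genes, 29 had an unadjusted p below 0.05 or passed under some setting and were followed, and 0 of these changed sign. Of the other 91, 32 changed sign under some setting. Coefficients followed for a small p lie away from 0, so the contrast between these counts comes largely from the choice. Nov and Cyr61 at 1 day and Ctgf at 5 days for smoke, Fn1 at both durations and Spp1 at 5 days for genotype, and Sparc at both durations and Thbs1 at 1 day for sex passed under all 10 settings that refitted the data and with every single mouse left out. Tnc for smoke at 5 days passed in 8 of 10 and not under the ordinary linear model (adjusted p = 0.0617) or the trend and robust prior (adjusted p = 0.053). Scaling moved the median of all rows by at most 0.04.

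The number of genes called for smoke at 5 days was 2, and became 5 with cyclic loess normalization, 5 with the lowest 30% of rows left out, 6 with array weights, 4 with the replicate block, 6 with 1 fit over all mice and 5 without the 4 mice that stood apart. The replicate block moved no other count past 1.5 times. The causes were not tested, except that a filter tests fewer rows. A 1.3-fold rule gave 1, 0 and 1 genes for smoke, genotype and sex at 1 day and 1, 1 and 0 at 5 days, and a 1.5-fold rule gave 0, 0 and 0 at 1 day and 1, 1 and 0 at 5 days. Adding genotype and sex to the comparison of smoke between durations gave 1 gene, and leaving out the 4 mice that stood apart gave 2 for sex at 5 days. With single mice left out the counts ran from 1 to 2 for genotype at 1 day, from 1 to 5 for smoke at 5 days, from 1 to 2 for sex at 5 days and from 0 to 1 for smoke between durations.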
